A study of Mus musculus with 24 samples.

Results

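The genes examined here are those whose lung expression followed a split of 9 recombinant inbred (RI) mouse strains into classes by the allele at Rpgrip1 on chromosome 14. An RI strain is an inbred line bred from the cross of its progenitors, and at nearly every locus it is homozygous for an allele of one or the other. The BXH strains used here come from C57BL/6J (B6) and C3H/HeJ (C3). The strains were chosen by the measured signal of Rpgrip1. The C3-like class held 5 strains with low, C3-like Rpgrip1 signal (BXH2, BXH4, BXH8, BXH14 and BXH19, 10 arrays). The B6-like class held 4 strains with high, B6-like signal (BXH6, BXH7, BXH9 and BXH10, 8 arrays). Together these are 18 of the 24 arrays of the study. The other arrays came from C3 mice, from their F1 hybrid (labelled BXHF1) and from B6 mice, with 2 arrays each. All 12 kinds of mice were males of 8 weeks from the Jackson Laboratory, and none was treated. One piece of whole lung was used per array, its total RNA was labelled and hybridised to an Affymetrix array, and the deposited value is a linear signal per probe set. A probe set is a group of short oligonucleotides directed against one transcript.

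Strains in the BXH set differ at many loci besides Rpgrip1, each class is a small number of inbred lines, and genotypes were not used here. Whether the bases under a probe set differ between B6 and C3 was not tested. A signal difference is therefore not shown to be one of transcript level. C3H/HeJ mice are known to carry a defective Tlr4, the receptor for bacterial lipopolysaccharide. BXH2 is known to carry a recessive mutation of Irf8, a regulator of myeloid cell development. Whether a strain's 2 arrays stand for separate animals is not stated in the labels. For the split, the strain was therefore the replicate, with 1 mean of log2(signal + 16) per strain, and its p-values measure the spread between strains. For C3 minus B6 the single arrays were the replicates, so each progenitor p measures only the spread between arrays of one kind of mouse, which may be technical.

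Rpgrip1 encodes a scaffold protein of the ciliary transition zone, the gate at the base of the cilium. It is best known from the connecting cilium of photoreceptors, where it anchors the protein Rpgr, and its loss causes retinal degeneration in mice and in people. Neighbouring loci on a chromosome are inherited together in an RI strain unless a recombination fell between them. A gene near Rpgrip1 therefore carries the allele of the same progenitor as Rpgrip1 in most RI strains, while genes on other chromosomes are inherited independently of it. With 9 strains, an unlinked locus can also be distributed over the strains as Rpgrip1 is. In this design such a locus cannot be told apart from a response to the chromosome 14 region.

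Rpgrip1 chose the classes and is given as a description only. Its brightest probe set had strain means of 136.2, 98.6, 98.4, 133.2 and 108.7 in BXH2, BXH4, BXH8, BXH14 and BXH19, against 1597.9, 2022.6, 2354 and 1672.2 in BXH6, BXH7, BXH9 and BXH10. The progenitor means were 62.9 in C3, 696.2 in the F1 and 1469.8 in B6. On a log2 scale on which B6 is 0 and C3 is 1, the C3-like strains lay between 0.77 (BXH14) and 0.87 (BXH8), and the B6-like strains between -0.16 (BXH9) and -0.03 (BXH6). No strain lay near 0.5, the point that separates the classes. The other 3 probe sets of Rpgrip1 were dim, with strain means between 2.9 and 72.5, and no probe set of Rpgrip1 entered the fit.

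The sequences just upstream of the genes at the centre of the region are shown because Rpgrip1 and its neighbours followed the split in different directions. They are RefSeq promoter windows of GRCm38.p6, which is a C57BL/6J sequence, from 250 bases before to 50 bases after the annotated start, read on the strand of the gene. Capitals mark the motifs searched on both strands: the GC box GGGCGG, the CCAAT box CCAAT, the TATA box TATAAA and the E-box CACGTG. Of 8 genes looked up, 7 had an entry, and Adamdec1 is named only.
Rpgrip1 (chr14:52110653-52110952, + strand): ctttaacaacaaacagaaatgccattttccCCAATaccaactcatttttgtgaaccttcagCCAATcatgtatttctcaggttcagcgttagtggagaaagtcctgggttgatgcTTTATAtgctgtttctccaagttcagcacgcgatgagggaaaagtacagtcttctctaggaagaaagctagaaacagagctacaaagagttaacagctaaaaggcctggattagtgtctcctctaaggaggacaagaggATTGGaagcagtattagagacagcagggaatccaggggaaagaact
Rnase4 and Ang, shared (chr14:51090827-51091126, + strand): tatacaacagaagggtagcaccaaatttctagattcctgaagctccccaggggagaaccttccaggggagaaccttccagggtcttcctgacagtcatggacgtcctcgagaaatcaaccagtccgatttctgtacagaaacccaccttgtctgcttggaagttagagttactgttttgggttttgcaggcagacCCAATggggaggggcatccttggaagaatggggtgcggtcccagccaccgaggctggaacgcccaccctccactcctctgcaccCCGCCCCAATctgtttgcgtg
Supt16 (chr14:52197190-52197489, - strand): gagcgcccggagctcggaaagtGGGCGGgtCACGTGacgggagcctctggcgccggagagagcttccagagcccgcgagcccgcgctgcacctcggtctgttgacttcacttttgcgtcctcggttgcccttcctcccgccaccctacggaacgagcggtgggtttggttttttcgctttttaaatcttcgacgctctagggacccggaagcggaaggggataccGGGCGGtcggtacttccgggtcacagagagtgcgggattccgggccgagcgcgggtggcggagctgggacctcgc
Chd8 (chr14:52257711-52258010, - strand): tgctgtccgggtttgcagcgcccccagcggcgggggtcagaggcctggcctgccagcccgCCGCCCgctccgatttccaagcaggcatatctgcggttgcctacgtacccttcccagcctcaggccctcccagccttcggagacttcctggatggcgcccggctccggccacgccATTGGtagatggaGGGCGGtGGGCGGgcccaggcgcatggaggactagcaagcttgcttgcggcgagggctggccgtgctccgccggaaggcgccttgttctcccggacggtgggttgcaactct
Rnase4 and Ang, which encode secreted ribonucleases, have an identical first promoter window in the annotation. It held 1 GC box and 2 CCAAT boxes, and the GC box overlaps 1 of the CCAAT boxes. The Rpgrip1 window held 3 CCAAT boxes, 1 TATA box on the opposite strand and no GC box. The Supt16 window held 2 GC boxes and 1 E-box, and the Chd8 window held 3 GC boxes and 1 CCAAT box. Of all 32851 promoter windows of this length, 35.7% held the GC box, 37.4% the CCAAT box, 13.6% the TATA box and 7.15% the E-box. Rpgrip1 and Supt16 lie on opposite strands, and their annotated spans overlap. The deposited signals were measured at transcripts and say nothing about which of these letters differ in C3 mice.

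Of the 8280 genes tested, 2 passed an adjusted p of 0.05 in limma (0.0242% of the genes tested), both on chromosome 14 and both lower in the C3-like strains. They were Rnase4 and Adamdec1, which are 2 of the 281 tested genes of chromosome 14 (0.712%). None of the 7989 tested genes on other chromosomes passed (0%). At an unadjusted p under 0.05 the counts were 31 genes on chromosome 14 (11%), of which 10 were higher (3.56%) and 21 lower (7.47%) in the C3-like strains. On other chromosomes there were 211 such genes (2.64%), 102 higher (1.28%) and 109 lower (1.36%). Over all genes the share was 2.93%, with 243 genes, 113 higher (1.36%) and 130 lower (1.57%), and the median difference between classes was -0.0075 on the log2 scale.

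A second way to count makes no use of a p-value: all strain means of one class lie above all of the other. This held for 69 of the 8280 genes (0.833%), 27 higher (0.326%) and 42 lower (0.507%) in the C3-like strains. On chromosome 14 it held for 17 of 281 genes (6.05%), of which 6 were higher (2.14%) and 11 lower (3.91%) in the C3-like strains. On other chromosomes it held for 52 of 7989 genes (0.651%), of which 21 were higher (0.263%) and 31 lower (0.388%). With any 1 strain left out, these counts were 19 to 33 on chromosome 14 and 102 to 263 elsewhere, both highest without BXH10. No other chromosome had a share above 1.39%, which chromosome 13 reached with 4 of 287 genes.

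**Figure D1:**
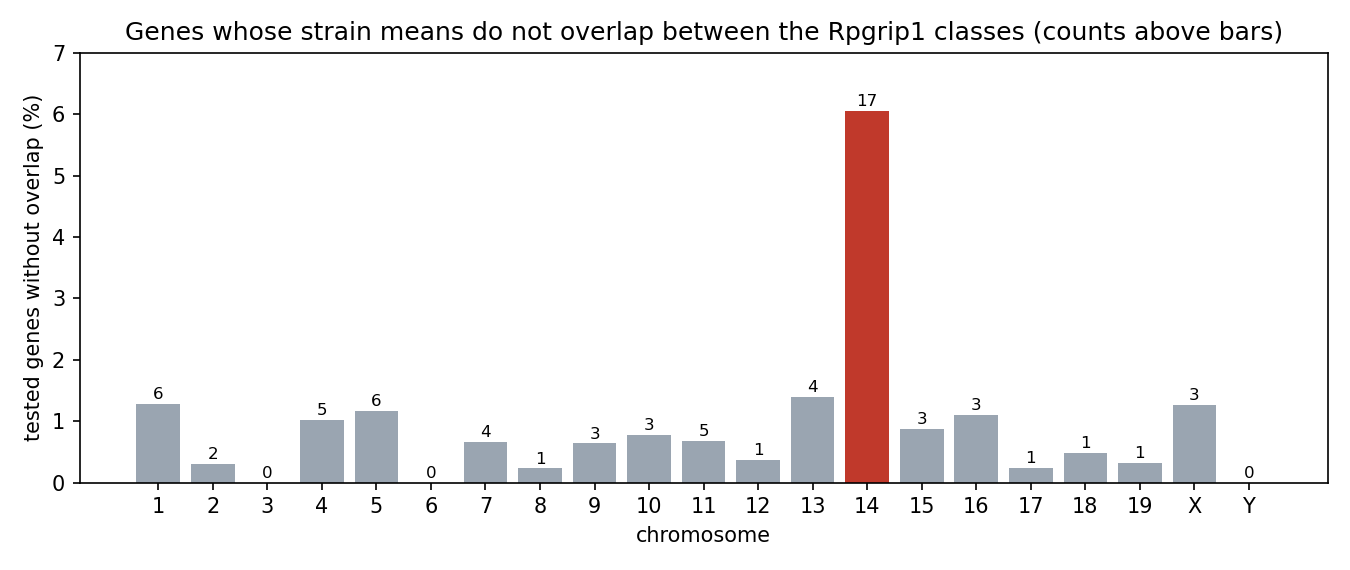
Share of the tested genes of each chromosome, in percent, whose strain means did not overlap between the 5 C3-like and the 4 B6-like strains, with the number of such genes above each bar. Chromosome 14 (red) stood at 6.05% with 17 genes, and the other chromosomes lay between 0% and 1.39%.

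The secreted ribonucleases near Rpgrip1 had lower signals in the C3-like strains. In the order of tested genes counted from Rpgrip1, they stood at -6 (Rnase4) and -7 (Ang). Rnase4, which degrades RNA outside cells, had strain means of 4188, 3894, 3914, 4207 and 4614 in BXH2, BXH4, BXH8, BXH14 and BXH19, against 6269, 5821, 6181 and 5983 in BXH6, BXH7, BXH9 and BXH10. The signal averaged 4164 ± 292 in C3-like strains and 6064 ± 201 in B6-like strains (SD, n = 5 and 4 strains). The classes did not overlap, and the log2 difference was -0.54 (SE 0.07, adjusted p = 0.0434 in limma). The single arrays of the progenitors, which the split did not use, read 4211 and 3642 in C3 lungs, 5364 and 5351 in F1 lungs and 5029.5 and 5809 in B6 lungs, and their log2 difference, C3 minus B6, was -0.46 (adjusted p = 0.0457 in limma). The F1 arrays lay on the B6 side of the range, and BXH19 was the highest of the C3-like strains.

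Ang, which encodes angiogenin, a ribonuclease that promotes vessel growth and cuts transfer RNA, had strain means of 118, 104, 104, 155 and 149 in the C3-like strains, against 259, 249, 353 and 241 in the B6-like strains. All C3-like strains were below all B6-like strains. The log2 difference was -1.04 (SE 0.15), the largest in size among the tested chromosome 14 genes, but the adjusted p of 0.062 in limma missed the threshold. The progenitor arrays read 156 and 122 in C3 lungs, 165 and 207 in F1 lungs and 351 and 289 in B6 lungs, a log2 difference of -1.12, C3 minus B6 (adjusted p = 0.0159 in limma). Both F1 arrays lay between those of the progenitors. Of the 24 genes listed for the RNase A family and its inhibitor, 3 passed the filter on dim probe sets, 1 was called lower and none higher, where 0.0242% of all tested genes were called. The third was Rnh1 on chromosome 7, which encodes the inhibitor of these enzymes, and its log2 difference was -0.03 (SE 0.09). The probes of Ang were not checked against its close paralogues.

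On the other side of Rpgrip1 the nearest tested gene was Supt16, which encodes the large subunit of the histone chaperone FACT. Its strain means were 1608, 1824, 1635, 1611 and 1659 in the C3-like strains, against 1229, 1041, 917 and 1174 in the B6-like strains. Supt16 was therefore higher in every C3-like strain, opposite in sign to Rpgrip1 and to the ribonucleases. The C3-like minus B6-like difference was 0.61 on the log2 scale (SE 0.09, adjusted p = 0.062 in limma), which missed the threshold. The progenitor arrays read 1684 and 2047 in C3 lungs, 1515 and 1049 in F1 lungs and 1025 and 1086 in B6 lungs, a log2 difference of 0.81 (adjusted p = 0.00689 in limma). A second, dimmer probe set of Supt16 was also without overlap, with a log2 difference of 1.56 between the RI classes and 2.25 between C3 and B6. The probe sets of Supt16 and Rpgrip1, whose annotated spans overlap, were not checked against each other's transcripts.

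Chd8 follows Supt16 and encodes a chromatin remodeller of the chromodomain helicase family. Its strain means were 558, 483, 527, 526 and 476 in the C3-like strains, against 661, 736, 712 and 735 in the B6-like strains. No strain of one class reached the other. On the log2 scale the classes differed by -0.46 (SE 0.07, adjusted p = 0.0921 in limma). The progenitor difference was -0.42 on the log2 scale and did not pass (adjusted p = 0.619 in limma), with arrays at 377 and 541 in C3 lungs, 640.5 and 468 in F1 lungs and 612 and 604 in B6 lungs. Of 16 genes listed for FACT and chromatin transcription, 10 were tested, none was called in either direction, and 2 had strain means without overlap, Supt16 and Chd8, where 0.833% of all tested genes had. The median difference over the 10 was -0.04, against -0.0075 over all genes.

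Ngdn encodes neuroguidin, a nucleolar protein that also binds the translation factor eIF4E, and it lay farther out on the same side. In the strains, Ngdn had mean signals of 714, 579, 704, 860.2 and 651 in the C3-like class, against 1126, 1244, 1316 and 1049.6 in the B6-like strains. The gap between the classes was wide, with the highest C3-like strain (BXH14) below the lowest B6-like strain (BXH10). The log2 difference was -0.75 (SE 0.11, adjusted p = 0.062 in limma). The other probe set of Ngdn differed by 0.05 between the RI classes and by 0.02 between C3 and B6, so the probe sets of the gene disagree.

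Adamdec1 encodes a secreted metalloprotease of macrophages and dendritic cells. It was the second gene to pass the threshold, although it stood 96 tested genes away from Rpgrip1. Adamdec1 had strain means of 151, 187, 176, 149 and 164 in the C3-like strains, against 322, 259, 326 and 350.4 in the B6-like strains. Each C3-like strain was below each B6-like strain. The class difference was -0.86 on the log2 scale (SE 0.11, adjusted p = 0.0461 in limma), or 0.55 times the B6-like level on that scale. The progenitor arrays read 118 and 165 in C3 lungs, 203 and 164 in F1 lungs and 298 and 267 in B6 lungs, a log2 difference of -0.94 (adjusted p = 0.0465 in limma). The F1 arrays lay nearer to C3.

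**Figure D2:**
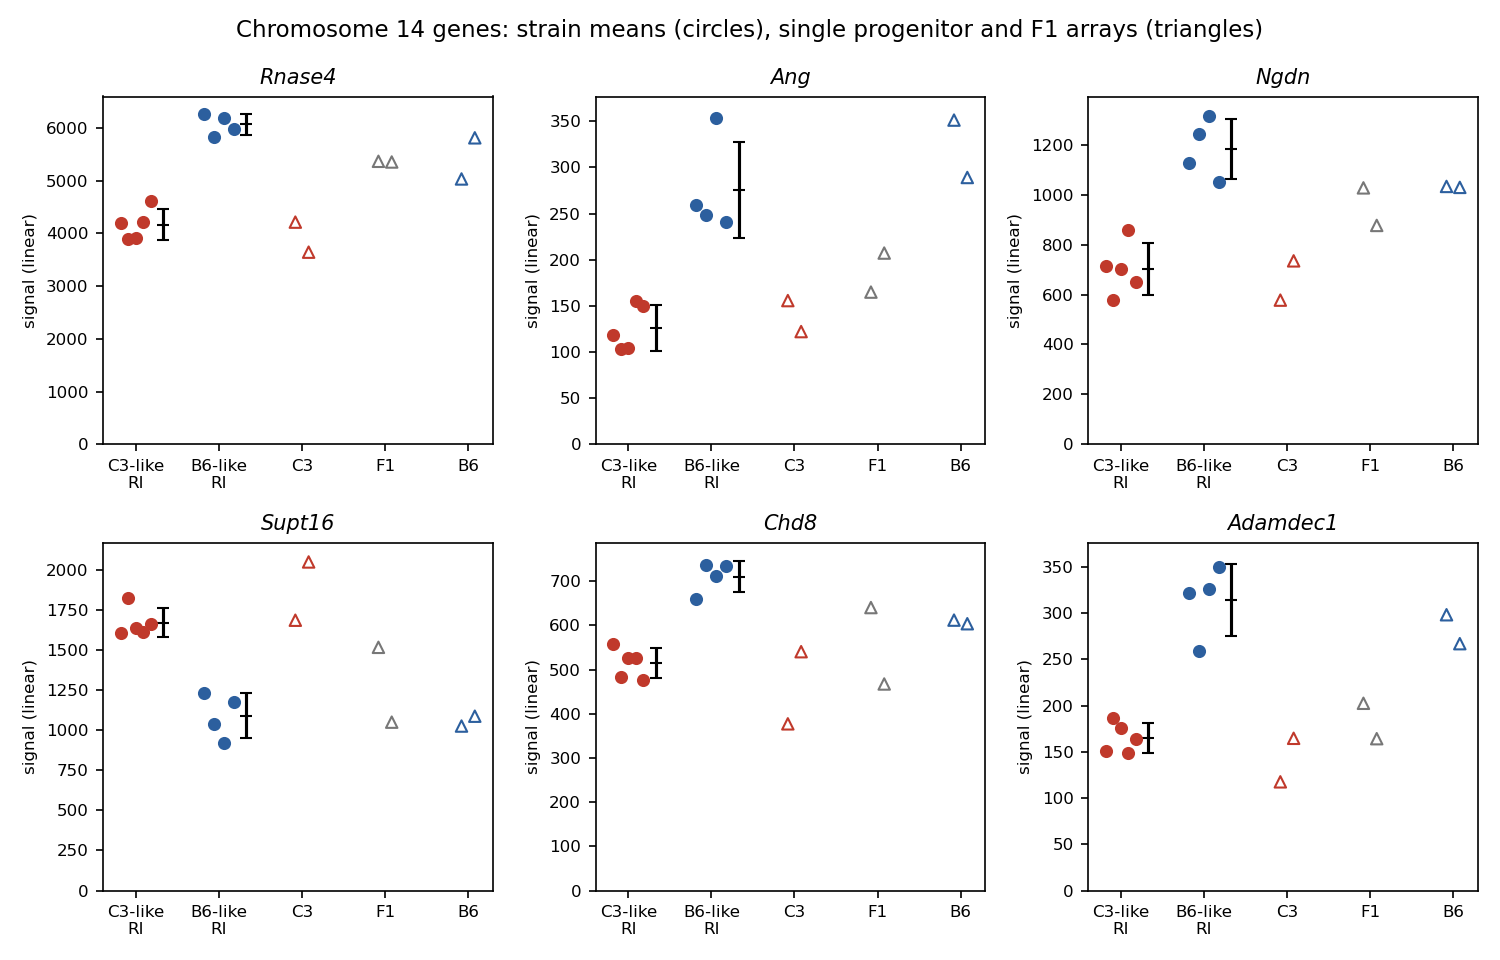
Linear signal of 6 chromosome 14 genes. Filled circles are strain means of the 5 C3-like and 4 B6-like RI strains with the class mean and SD beside them, and open triangles are the 2 single arrays each of C3, F1 and B6. In all 6 panels the RI classes do not overlap, and Supt16 is the one panel in which the C3-like strains are the higher ones.

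Both calls lay close to the threshold, and neither was stable when 1 strain was left out. Without any one strain Adamdec1 missed the threshold, with adjusted p between 0.0579 (without BXH7) and 0.205 (without BXH6), and Rnase4 missed it in all cases but without BXH19 (0.0287), with the others between 0.0515 (without BXH9) and 0.158 (without BXH2 or BXH6). The log2 differences themselves moved between -0.58 and -0.52 for Rnase4 and between -0.95 and -0.81 for Adamdec1.

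A further 11 chromosome 14 genes had strain means without overlap and are described without a call. On the ribonuclease side of Rpgrip1 these were Mettl17, a factor for mitochondrial ribosome assembly (log2 difference 0.33), Ttc5, a tetratricopeptide protein that binds nascent tubulin (0.41), Naa30, the catalytic subunit of an N-terminal acetyltransferase (-0.40), Gmfb, a regulator of actin branches (-0.22), Gdf2, a ligand of the BMP family (0.18), and Dnajc9, a co-chaperone that binds histones (-0.16). On the Supt16 side were Prmt5, an arginine methyltransferase (-0.21), Cab39l, a scaffold of the LKB1 kinase (-0.29), Ebpl (0.25), the tumour suppressor Rb1 (0.38) and the splicing protein Wbp4 (-0.13). Ttc5 had strain means of 588, 552, 603, 607 and 565 in the C3-like strains, against 388, 451, 459 and 439.8 in the B6-like strains, and the smallest adjusted p of the 11 (0.238 in limma). Rb1 had 746, 679.5, 739.5, 833 and 708 in the C3-like strains, against 514, 569.5, 629 and 539.5 in the B6-like strains (adjusted p = 0.752 in limma). The classes were separated in both genes, by a narrow gap in Rb1 between BXH4 and BXH9. Other probe sets of Cab39l, Gmfb and Wbp4 had overlapping strain means, that of Wbp4 with a log2 difference of -0.0924. A second one of Cab39l above the filter gave -0.0557 with overlap, and the mean of its probe sets was -0.098. Those of Gmfb above the filter gave -0.381, -0.148 and 0.0117, all with overlap, and the mean of its probe sets was -0.14.

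The genes that followed the split were most dense close to Rpgrip1. Among the 20 tested genes on the Rnase4 side nearest to it, 5 had strain means without overlap, and among the nearest 20 on the Supt16 side 3 did. In the next 20 on either side there was 1 each, Gmfb and Ngdn. Beyond these, 2 of 84 genes were without overlap on the Rnase4 side, and 2 of 40 and then 3 of 77 on the Supt16 side. The median size of the log2 difference was 0.205 and 0.124 in the near windows. In the 5 outer windows, in chromosome order, it was 0.0618, 0.0786, 0.071, 0.0727 and 0.0847. The order is that of GRCm38.p6, since the array files name no build, and windows are counts of tested genes, not distances.

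**Figure D3:**
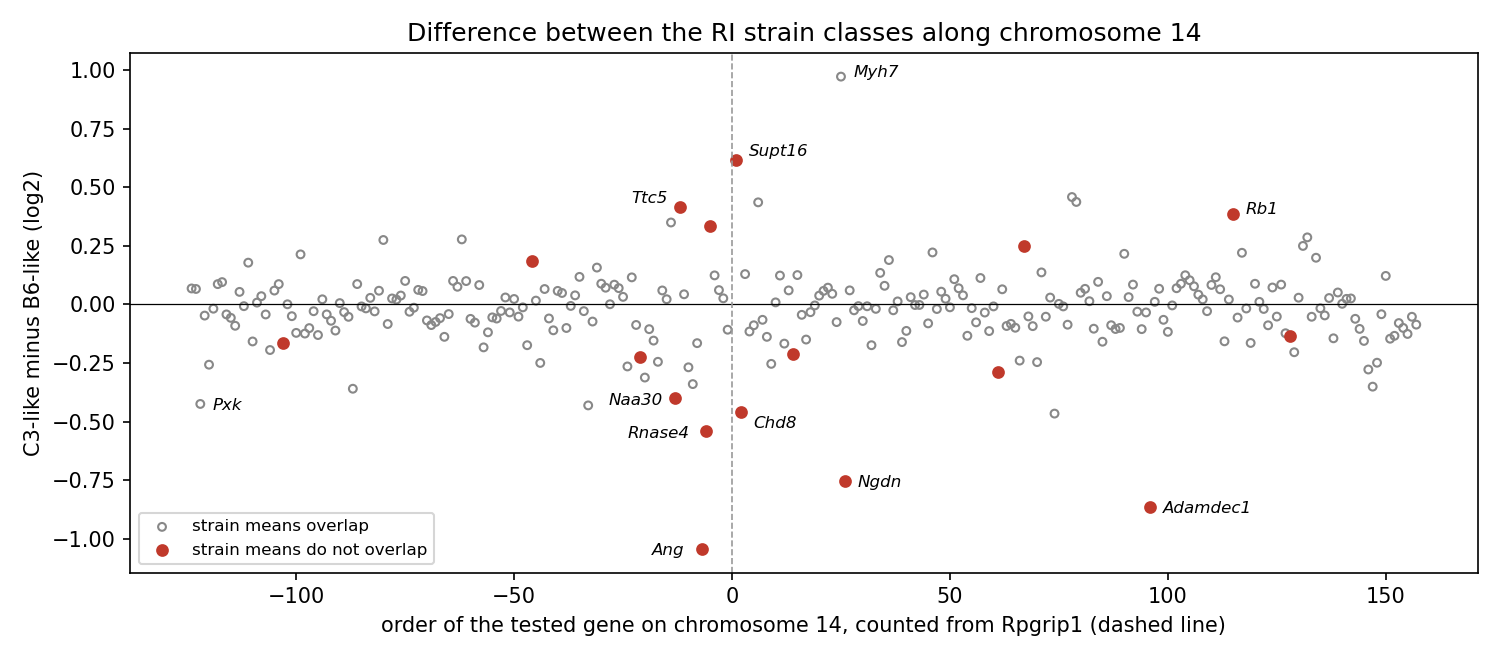
Log2 difference, C3-like minus B6-like, of the 281 tested chromosome 14 genes in gene order, counted from Rpgrip1 (dashed line). Filled red points are the 17 genes whose strain means did not overlap; 8 of them lie within 20 tested genes of Rpgrip1, and Adamdec1 and Rb1 stand apart from the region.

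Near neighbours did not all follow. Of the 5 tested genes on each side of Rpgrip1, Mettl17, Supt16 and Chd8 had strain means without overlap and the other 7 did not. Hnrnpc, a nuclear RNA-binding protein and the closest gene on the ribonuclease side, had a log2 difference of -0.11 (SE 0.08). Zfp219, Arhgef40 and Ndrg2 had 0.03, 0.06 and 0.12, and their sign turned when 1 strain was left out. Rab2b, Tox4 and Mettl3, the writer of the m6A mark on messenger RNA, had 0.13, -0.12 and -0.09. A second probe set of Hnrnpc was without overlap at 0.56 between the RI classes and 0.53 between C3 and B6, and the mean of the probe sets of Hnrnpc was 0.23, of the opposite sign to its brightest one. A dim probe set of Arhgef40 was without overlap at -0.57, with C3 minus B6 at -0.57. A dim probe set of Rab2b was without overlap at -0.66, opposite in sign to its brightest one and to its own C3 minus B6 of 0.59. The other probe sets of Mettl17 gave 0.24 and 0.00225.

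All 17 chromosome 14 genes without overlap had the same sign in the RI split as between the progenitors, which the split did not use. In 12 of the 17 both C3 arrays lay on that side of both B6 arrays, and in none on the opposite side. Dnajc9, Gdf2, Prmt5, Cab39l and Wbp4 were the rest, with log2 progenitor differences of -0.06, 0.03, -0.03, -0.15 and -0.02. Their SE were 0.19, 0.29, 0.15, 0.16 and 0.18, each larger than the difference, so these signs say little. Of the 52 genes without overlap on other chromosomes, 20 had the progenitor's sign, with the progenitor arrays apart on the same side in 8 and on the opposite side in 9. Among genes with overlapping strain means the same sign was seen in 134 of 264 genes on chromosome 14 and in 3743 of 7937 elsewhere. The median size of the progenitor difference was 0.434 (log2) in the 17 genes and 0.14 in the 52. Genes of one chromosome are inherited together, so the 17 are not independent of each other.

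**Figure D4:**
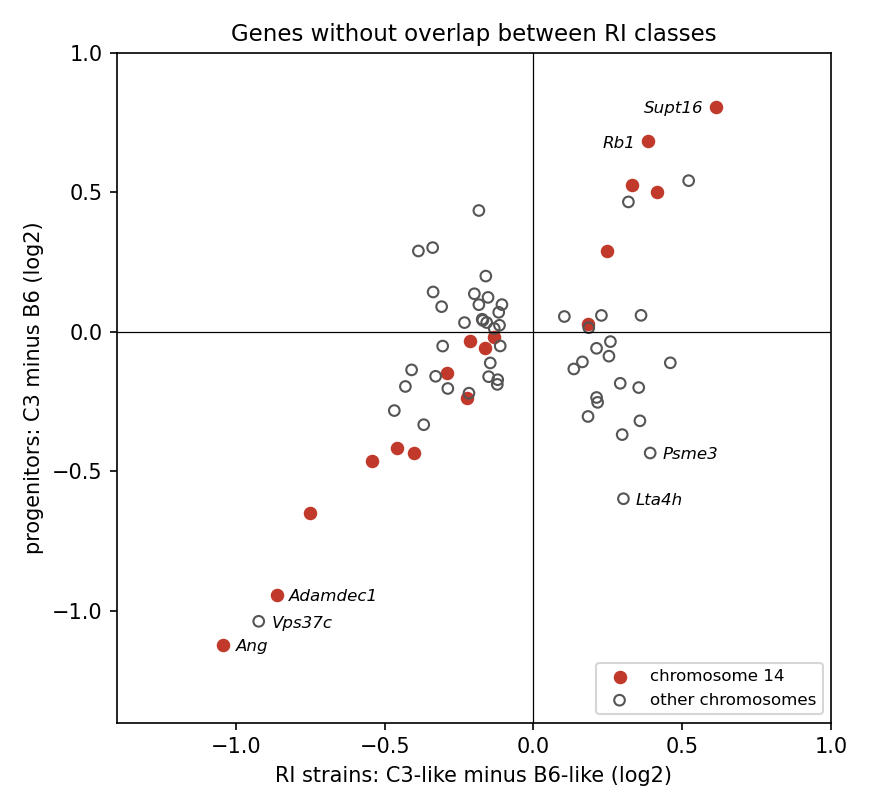
Each point is a gene whose strain means did not overlap, with its log2 difference between RI classes (C3-like minus B6-like) on the x axis and that between progenitors (C3 minus B6) on the y axis. The 17 chromosome 14 genes (red) lie at the lower left and upper right, where both differences have the same sign, and of the 52 genes of other chromosomes (open) 20 do.

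The question can be turned round, starting from the 137 genes called between C3 and B6 (1.65% of the genes tested; 8 on chromosome 14, 2.85%, and 129 elsewhere, 1.61%). Each RI strain was placed between B6 (0) and C3 (1) at each gene and counted as matching when it fell on the side of its Rpgrip1 class. On chromosome 14, Ang, Supt16 and Adamdec1 matched in 9 of 9 strains. Rnase4 and Rb1 matched in 8 of 9, with BXH19 at 0.49 for Rnase4 and BXH9 at 0.67 for Rb1. The exception of Rnase4 was narrow, since 0.49 is next to the boundary at 0.5.

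The other 3 chromosome 14 genes with progenitor differences followed less closely. Pxk, a phox-domain protein of endosomal trafficking, matched in 7 of 9 strains, with BXH8 at 0.21 and BXH9 at 1.12. Its other strains lay between 0.81 and 1.02 in the C3-like class and between -0.12 and -0.01 in the B6-like class, so both exceptions were clear. Myh7, the myosin heavy chain of slow muscle and heart, also matched in 7, with BXH4 at 0.35 and BXH9 at 0.55. Nr1d2, a nuclear receptor of the circadian clock, lay beyond C3 in all 9 strains, between 1.16 and 1.67, and matched in 5. On other chromosomes no gene of the 129 matched in all 9 strains, 3 matched in 8 (Vps37c, Prpf19 and Srd5a3), 7 in 7 and 19 in 6. A match in 4 or 5 strains was seen for 39 and 38 genes. These counts are partly fixed by the scoring. A gene with all RI strains on the B6 side scores 4, and one with all on the C3 side scores 5.

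**Figure D5:**
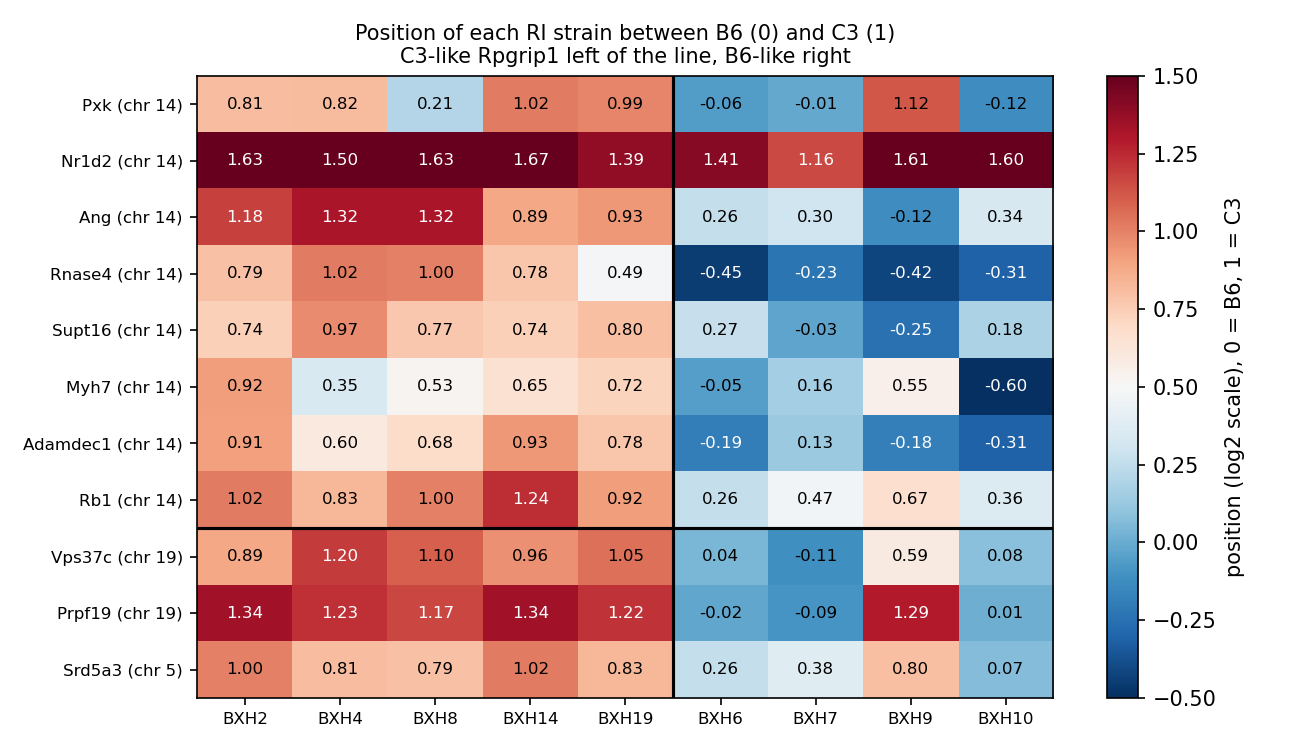
Position of each RI strain between B6 (0) and C3 (1) on the log2 scale for the 8 chromosome 14 genes called between the progenitors and for the 3 genes elsewhere that matched in 8 strains. C3-like strains stand left of the vertical line and B6-like strains right of it. BXH9 is the exception for Vps37c (0.59), Prpf19 (1.29) and Srd5a3 (0.80), and Ang, Supt16 and Adamdec1 have none.

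Among unlinked genes the smallest p belonged to Vps37c on chromosome 19, a subunit of the ESCRT-I complex that sorts membrane proteins to lysosomes. Its strain means were 332, 266, 284, 313 and 292 in the C3-like strains, against 624, 694, 412 and 607 in the B6-like strains. The classes did not overlap, with BXH9 the lowest B6-like strain. The log2 difference was -0.92 (SE 0.14, adjusted p = 0.062 in limma), which missed the threshold. The progenitors differed in the same direction, with arrays at 278 and 332 in C3 lungs, 515 and 384 in F1 lungs and 649.5 and 630.3 in B6 lungs, a log2 difference of -1.04 (adjusted p = 0.00718 in limma). The other probe set of Vps37c differed by -0.19 between the RI classes, with overlap.

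Prpf19, a ubiquitin ligase of the spliceosome, lies near Vps37c on chromosome 19 with 3 tested genes between them. Strain means of Prpf19 were 662, 711, 728, 664 and 707 in the C3-like strains, against 1389.5, 1442, 682 and 1367 in the B6-like strains. Here BXH9 lay among the C3-like strains, and the other 3 B6-like strains were far above all of them. Between the classes the log2 difference was -0.74 (SE 0.19, adjusted p = 0.999 in limma), and the progenitor difference was -0.77 (adjusted p = 0.00972 in limma). The genes between them, Slc15a3, Tmem132a and Tmem109, had log2 differences of -0.05, 0.08 and -0.18 and overlapped. The other probe sets of Prpf19 gave -0.50 and 0.08.

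Srd5a3 on chromosome 5, a reductase that makes dolichol for protein glycosylation, had strain means of 696, 551, 536, 719.5 and 558 in the C3-like strains, against 295, 309, 539.8 and 219.8 in the B6-like strains. BXH9 again fell within the C3-like range. The log2 difference was 0.94 (SE 0.22, adjusted p = 0.999 in limma), against 1.82 between C3 and B6 (adjusted p = 0.00342 in limma). The 3 other probe sets of Srd5a3 had differences of the opposite sign, -0.28, -0.17 and -0.23. Without BXH9, 4 unlinked genes passed and no chromosome 14 gene did. They were Prpf19 (adjusted p = 0.000896), Vps37c (0.00353), Srd5a3 (0.0251) and Rasl11b on chromosome 5 (0.0251), all in limma.

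On other chromosomes, 5 genes without overlap lay on one stretch of chromosome 5, which holds 74 tested genes between its ends, Hs3st1 and Cox18. Both ends are among the 5 genes, so the stretch was drawn after the values were seen. Whether it holds more such genes than chance would give was not tested. Chromosome 5 as a whole had 6 of 516 tested genes without overlap (1.16%). The share was 0.651% over all chromosomes but that of Rpgrip1, among which chromosome 13 was highest at 1.39%. Hs3st1, a heparan sulfate sulfotransferase, had strain means of 419, 362, 422, 516 and 370.0 in the C3-like strains, against 593, 515, 559.9 and 625 in the B6-like strains. Tec, a kinase of lymphoid and myeloid signalling, had 181, 182, 187, 187 and 184 in the C3-like strains, against 249, 287, 216 and 259 in the B6-like strains. The classes of Tec did not overlap, and those of Hs3st1 were separated on the log2 scale alone, on which BXH14 and BXH7 all but met. Their log2 differences were -0.47 and -0.43 (adjusted p = 0.752 for each in limma). That of Hs3st1 was -0.773 on the arrays numbered 1 alone and -0.163 on those numbered 2. Cox18, a mitochondrial insertase, had 0.32, Pgm2 had 0.30 and Limch1 -0.11. Hs3st1, Tec and Cox18 had the progenitor's sign, whereas Pgm2 and Limch1 had the opposite one.

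Lta4h on chromosome 10, the hydrolase that makes leukotriene B4, a neutrophil attractant, went against the progenitors in its brightest probe set. Its strain means were 1172, 1157, 1206, 1080.0 and 1023 in the C3-like strains, against 896, 893, 963 and 891 in the B6-like strains. It was higher in every C3-like strain, with a log2 difference of 0.30 (SE 0.07, adjusted p = 0.999 in limma). Between the progenitors the arrays read 892 and 977 in C3 lungs, 1024 and 991 in F1 lungs and 1494 and 1349.9 in B6 lungs, a log2 difference of -0.60 (adjusted p = 0.0221 in limma). Psme3, a proteasome activator on chromosome 11, likewise had 304, 408, 333, 369.6 and 387 in the C3-like strains, against 284, 249, 268 and 264 in the B6-like strains, while C3 minus B6 was -0.43 (adjusted p = 0.719 in limma). Other probe sets did not all show this. A second one of Lta4h above the filter gave 0.0172 between the RI classes and 0.223 between C3 and B6, and a dim one gave 0.523 and -0.435. A second one of Psme3 above the filter gave 0.0321 and 0.0988. The remaining unlinked genes of smallest p were Pfkfb3, a regulator of glycolysis, with a log2 difference of 0.50, Nkain1 with 0.52 and Prpf40b with -0.41, each with an adjusted p of 0.999 in limma.

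For comparison, 8 genes of other loci were chosen from earlier results for their wide differences among the kinds of mice. Cap1, H2-D1, H2-K1, Glo1, Nnt and Baiap2l1 differed between C3 and B6 by 3.37, -3.07, -2.51, 1.15, 0.95 and 2.53 on the log2 scale, and between the RI classes by 0.10, 0.34, 0.22, -0.15, -0.06 and -0.47. Trim34a and Gbp2b, both interferon-inducible, differed by -2.64 and 2.55 between the progenitors and by 1.22 and -1.68 between the RI classes. None had strain means without overlap or passed the test. For Nnt this could not have been otherwise, since all RI strains lay near or beyond the C3 level. With B6 at 0 and C3 at 1, they ran from 0.89 (BXH10) to 1.4 (BXH9). Cap1, for example, had 2985, 3657, 249.6, 3007 and 3242 in the C3-like strains, against 3648, 3315, 2752 and 318 in the B6-like strains, with 1 low strain in each class.

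None of the tested genes known to work with Rpgrip1 was called. Rpgr itself was not tested, nor were Cep290, Nphp4 and Rpgrip1l. Of 28 listed partners and transition zone genes, 9 were tested. None of the 9 was called in either direction, none reached an unadjusted p under 0.05 and none was without overlap. Over all tested genes these shares were 0.0242%, 2.93% and 0.833%, so finding none in lists this short says little. The median log2 difference of the 9 was -0.0326, against -0.0075 over all genes. Arl3, a small GTPase of ciliary cargo release, had -0.17 (SE 0.14), and Ift88, a subunit of the intraflagellar transport complex on chromosome 14, had -0.13 (SE 0.10). Of 30 motile cilia genes, which in lung mark the ciliated airway cells, 7 were tested and none was called or reached an unadjusted p under 0.05, with a median of -0.0534. Among these, Rsph1 had -0.09 (SE 0.09), and Tubb4b, whose sign turned when its probe sets were averaged, had -0.05 (SE 0.08). A p that misses the threshold does not show that these genes were equal between classes.

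Markers of lung cell types were called in no list, where 0.0242% of all tested genes were called. At an unadjusted p under 0.05 the share over all tested genes was 2.93%, and 3897 of all 8280 were higher in the C3-like class. Whether the genes of a list vary together was not tested, so their signs are not counted as independent. In bulk lung, fewer cells of a type and less RNA per cell cannot be told apart. Surfactant and other alveolar type 2 genes, which define the tissue, had list means of 12.47 to 12.69 (log2) in the C3-like strains and 12.5 to 12.68 in the B6-like strains. All 9 tested neutrophil genes were higher in the C3-like class, with a median of 0.312, and 2 reached an unadjusted p under 0.05. S100a8, a calcium-binding alarmin, had 4616, 3959, 2410.3, 1598 and 2769 in the C3-like strains, against 958, 1563, 2684 and 1399 in the B6-like strains. The classes overlapped, BXH2 was highest, and the log2 difference was 0.91 with all strains and 0.725 without BXH2. It was 1.497 on the arrays numbered 1 alone and 0.32 on those numbered 2, and S100a9, its partner in calprotectin, had 1.468 and 0.254. Marco, a scavenger receptor of alveolar macrophages, had 351, 239.8, 442, 271 and 337 in the C3-like strains, against 20.8, 251, 104 and 228 in the B6-like strains, a log2 difference of 1.47 (SE 0.49) that was 0.895 without BXH6, and the median of its list was 0.0197. Of the 9 tested genes of that list 5 were higher.

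Skeletal muscle genes varied widely within both classes. Of 14 tested, 13 were higher in the C3-like strains, where 3897 of all 8280 genes were. None reached an unadjusted p under 0.05, where 2.93% of all genes did, and the median difference was 0.732. The list mean spanned 7.402 to 11 (log2) in the C3-like strains and 7.064 to 11.31 in the B6-like strains. Tnnc2, a fast muscle troponin, had 3575, 461, 3609, 768 and 212 in the C3-like strains, against 70.7, 8.30, 4737 and 805 in the B6-like strains, with BXH2, BXH8 and BXH9 high. With the list mean as a covariate no gene passed, while the log2 differences of Rnase4 and Adamdec1 were -0.54 and -0.87 (adjusted p = 0.065 for both in limma). Myh7 on chromosome 14, itself a muscle gene, had 724, 381, 466, 541 and 575 in the C3-like strains, against 241, 308, 496 and 126 in the B6-like strains, with BXH9 inside the C3-like range. Its log2 difference was 0.97 (SE 0.31, adjusted p = 0.999 in limma), or 0.885 with the covariate, and 1.57 between C3 and B6 (adjusted p = 0.00138 in limma). Of 11 cardiac muscle genes, 2 were higher, none reached an unadjusted p under 0.05, and the median was -0.0775, with Myh6, the other cardiac myosin heavy chain, at -0.08. Squamous epithelium genes, 5 of 5 higher with a median of 0.932, and adipose genes, 4 of 4 higher with a median of 0.43, also reached no unadjusted p under 0.05, and their part in the results was not tested.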

How the data were processed

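Lung RNA of 24 arrays was analysed, 18 of them from the 9 RI strains. Trizol was used for the total RNA, which was copied into biotin-labelled cRNA, per the labels' protocols. The authors' deposited table gives a linear signal intensity for each of 22690 probe sets on each array. The signal software and any scaling are not given in the sources used. The mean after trimming 2% of values from each end was 500.11 to 500.13 on every array and medians were 239 to 269.6, so no further normalization was applied. The number of arrays limits the precision.

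Of the probe sets, 20393 had 1 symbol, 691 had several and 1606 had none. A gene was represented by the brightest of its probe sets (mean of the 24 arrays) and tested if that mean was in the top 60 percent (a signal of 169), which left 8280 genes. Of their symbols, 8272 matched the RefSeq gene table of GRCm38.p6, used for gene order. Strain means of log2(signal + 16) were compared with limma 3.58.1 (lmFit, eBayes with trend, 7 residual degrees of freedom) in R 4.3.3, C3-like minus B6-like, with Benjamini-Hochberg adjustment over all genes. Adding 16 understates differences of dim genes. C3 minus B6 came from a limma fit of the 24 arrays. Called means an adjusted p below 0.05. Arrays of a strain correlated at 0.949 to 0.975, and no arrays were identical. The script was tested on simulated data.

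The classes, gene lists and members were chosen with earlier results of these data known. Named genes were those called, the 5 tested genes on each side of Rpgrip1, the unlinked genes of smallest p (5 in each direction), 11 genes chosen from earlier results and up to 4 genes of smallest p per list described. Other genes without overlap, those called between C3 and B6, and neighbours of Vps37c and Hs3st1 were named after their values were seen. Alternatives tried were other normalizations, offsets, filters, probe set rules, variance models, arrays, strains left out, a muscle covariate and the replicate number as a block. Whether the replicate numbers pair the strains was checked over 36 strain pairs. Differences between array 1 and array 2 correlated at -0.25 to 0.34 (median 0.011), with 13 pairs over 0.1. No pairing common to all strains was seen, and the main fit used none. Whether some of the strains share one was not tested.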

Additional observations from a re-analysis of the deposited data

Results flagged for a closer look

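Of 112 gene and class combinations examined with Dixon's test, 9 had a strain far from the rest of its class. Chance gives about 1 in 20. That rate is no reference for genes chosen by their values, among them Cap1, Trim34a, Pink1, Alpl and Prpf19. BXH9 and BXH19 appear more than once. The number given for each of the 9 is the gap to the nearest strain over the whole range of the class. Supt16 was set apart in the C3-like class by a high BXH4 (0.749), and Rsph1 by a low BXH2 (0.757). Pink1, a mitochondrial kinase, was low in BXH19 (0.903) and Alpl, an alkaline phosphatase, was high there (0.823), both in the C3-like class. In the B6-like class BXH9 stood apart with low Prpf19 (0.925) and high Lta4h (0.96). Cap1 was low in BXH8 of the C3-like class (0.924) and in BXH10 of the B6-like class (0.881), and Trim34a was high in BXH7 of the B6-like class (0.867). Lta4h and Psme3, in their brightest probe sets, were higher in every C3-like strain than in every B6-like strain, while both C3 arrays were below both B6 arrays, with C3 minus B6 at -0.60 and -0.43 on the log2 scale. The difference between the RI contrast and the progenitor contrast was not tested.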

How the results depend on the processing

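Quantile normalization, median centring and offsets of 1 and 64 kept both calls, Rnase4 and Adamdec1, with none on other chromosomes. With no filter, with every probe set tested and with the skeletal muscle covariate, 0 genes passed in all and 0 on chromosome 14, in limma; in these fits the adjusted p of both genes was 0.107, 0.0504 and 0.065. The top 40 percent of probe sets gave 1 call (Rnase4; Adamdec1 was too dim to be tested), a fit with no mean-variance trend 1 (Adamdec1), and the mean of a gene's probe sets 4, all 4 on chromosome 14 (Ang and Supt16 added). Robust eBayes and the 18 arrays with strain as a random block each gave 6 calls, 5 on chromosome 14 (Adamdec1, Rnase4, Ang, Supt16 and Ngdn) and 1 elsewhere (Vps37c). The replicate block added to the random strain block gave the same 6, 5 and 1. Arrays numbered 1 alone gave 0 calls in all and 0 on chromosome 14, and arrays numbered 2 alone gave 1 (Ngdn, chromosome 14). Over all alternatives the adjusted p in limma ranged from 0.000197 to 0.277 for Rnase4 and from 0.00192 to 0.999 for Adamdec1. Both lowest values came from the 18 arrays with strain as a random block. That fit counts single arrays as observations, with 1 within-strain correlation of 0.226 for all genes. Among fits with 1 value per strain the lowest adjusted p in limma was 0.0209 for both genes, with quantile normalization. Leaving out each strain in turn gave 0 to 4 calls in all, 0 to 1 on chromosome 14 and 0 to 4 elsewhere, the 4 without BXH9. Genes without overlap then numbered 19 to 33 on chromosome 14 and 102 to 263 elsewhere, both highest without BXH10, since fewer strains separate more easily. On other chromosomes there were 90 such genes with no filter, 79 with every probe set and 88 on the arrays numbered 1, where chromosome 14 had 10. Signs turned for Arhgef40 (-0.04), Hnrnpc (0.228) and Tubb4b (0.069) with the mean of probe sets, for Gdf2 (-0.113) and Tubb4b (0.013) on the arrays numbered 1 and for Zfp219 (-0.023) on those numbered 2; the cause was not tested. With a strain left out, log2 differences ranged from -0.724 to 0.827 for Cap1, from -0.2 to 0.876 for H2-D1, from -0.192 to 0.64 for H2-K1, from -0.379 to 0.097 for Glo1, from -0.13 to 0.03 for Nnt, from -0.005 to 0.178 for Arhgef40, from -0.08 to 0.105 for Zfp219 and from -0.013 to 0.328 for Ndrg2.

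The number of strains, 9 with 2 arrays each, limits the precision. Ang and Adamdec1 were dim and were not among the top 40 percent of probe sets.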

Other observations

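No member was called in 3 further gene lists, where 0.0242% of all tested genes were called. Over all 8280 tested genes, 3897 were higher in the C3-like class and 2.93% reached an unadjusted p under 0.05 in limma. Of 12 tested circadian clock genes, 10 were higher in the C3-like class, with a median log2 difference of 0.201. Arntl, the clock's activator, had -0.63 (SE 0.25, unadjusted p = 0.0286 in limma), and Per2, a repressor, had 0.71 (SE 0.35). The list means overlapped, at 9.537 to 9.839 in the C3-like strains and 9.135 to 9.972 in the B6-like strains. Of 14 tested interferon response genes, 12 were higher, with a median of 0.136, and 2 reached an unadjusted p under 0.05 in limma, Rsad2 (0.54) and Ifit3 (0.27). Endothelial genes were higher in 11 of 12, with a median of 0.0695 and 1 at an unadjusted p under 0.05 in limma, Emcn (0.25).

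Pink1 and Alpl, both on chromosome 4 and both called between the progenitors, went the other way in the split. Pink1 had a log2 difference of 0.74 (SE 0.20, adjusted p = 0.999 in limma) between the RI classes and -1.30 between C3 and B6, and Alpl had -0.69 (SE 0.21, adjusted p = 0.999 in limma) and 0.84. Without BXH19, the exception in the C3-like class for both, Pink1 had 0.915 and Alpl -0.877.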
